A study of Mus musculus with 3 samples.

Results

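The sites described here are the meiotic recombination hotspots nearest to the centromere. They were the autosomal hotspots of PRDM9 class CAST or HUM whose DMC1 peak centre lay below position 10000000 of the mouse build mm10. The choice used position and class alone, and none of the signals compared below. It gave 1090 sites, here called centromere-proximal, of the 24586 sites of the deposited table and of its 21653 autosomal CAST and HUM sites. They divided into 642 CAST and 448 HUM sites. The 20563 autosomal CAST and HUM sites beyond 10 Mb, here called the other sites, served for comparison.

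All values came from whole testis of F1 males of C57BL/6J (B6) crossed with CAST/EiJ (CAST), with the Prdm9 genotype HUM/CAST: a humanized allele (HUM) together with the CAST allele. DMC1 ChIP-seq was made from a 10-week-old male, and the H3K4me3 ChIP-seq and MNase-seq libraries of the series from an adult male; MNase-seq was not used here. Every site therefore shares the same hybrid genome and both Prdm9 alleles, and there was no group without either allele. Per the file headers, the raw data behind the H3K4me3 values are those of Li et al, so the animal behind these values may be another than the adult male of the labels. With 1 library per assay, differences between sites have no check across replicates, and no p-value was computed, since sites of 1 library are not replicates. The material was whole testis, so a lower signal per cell and fewer cells at the stage that carries a mark cannot be told apart. Sequencing depth was unknown.

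In meiotic germ cells PRDM9 recognises short DNA motifs through its zinc fingers and trimethylates lysine 4 of histone H3 (H3K4me3) on the nucleosomes around them. Double-strand breaks are then made at some of these places, and the recombinase DMC1 coats the single-stranded DNA of the broken homologue while it seeks its partner. Mouse autosomes carry their centromere at one end, at the start of the reference sequence, behind a placeholder for repeats that were not assembled. Crossovers close to a centromere are known in many species as a risk for chromosome segregation, which makes the breaks of this region of interest.

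The sequences that the annotation tables hold for these sites are few. Of the 1032 centromere-proximal sites on the 18 autosomes with promoter sequences, the centre of the DMC1 peak lay in the 250 bases before an annotated transcription start at the genes Smim22 and Gm1604b only. Both are shown 5′ to 3′ on the plus strand, from RefSeq on GRCm38.p6, the assembly that mm10 represents, because they let the position of a break site be read against a promoter. Capitals mark the 21 bases centred on the DMC1 peak centre.
Smim22 chr16:5007038-5007287: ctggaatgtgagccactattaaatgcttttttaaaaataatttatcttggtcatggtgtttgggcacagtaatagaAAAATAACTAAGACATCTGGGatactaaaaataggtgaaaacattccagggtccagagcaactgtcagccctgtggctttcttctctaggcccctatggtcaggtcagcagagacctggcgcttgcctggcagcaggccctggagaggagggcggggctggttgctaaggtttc
Gm1604b chr17:7025293-7025542: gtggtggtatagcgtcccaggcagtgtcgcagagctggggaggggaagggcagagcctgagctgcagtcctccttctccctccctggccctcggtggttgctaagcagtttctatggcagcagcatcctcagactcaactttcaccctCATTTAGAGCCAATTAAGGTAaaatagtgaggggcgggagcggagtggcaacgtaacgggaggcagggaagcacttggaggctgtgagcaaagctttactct

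The Smim22 site, of class CAST, had its centre 164 bases before the start nearest to it, with a DMC1 signal of 33.2 and an H3K4me3 signal of 11.6 in the authors' units. Its DMC1 came about equally from both homologues, with a B6 share, the fraction of the signal on the B6 homologue, of 0.472. The Gm1604b site, of class HUM, lay 92 bases before the start, with a DMC1 signal of 33.9 and an H3K4me3 signal of 47.0, and no homologue share was given for it. Both sites lay on H3K4me3 peaks that the authors marked as independent of PRDM9. The degenerate motif known for human PRDM9, CCNCCNTNNCCNC, searched on both strands, was found 0 times in either sequence. It was present in 5.35% of the 31365 autosomal promoters of the same length. Which zinc-finger array the HUM allele encodes was not used here, and a missing match says only that these letters are not in the window.

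Few sites lay at promoters, near the centromere as elsewhere: 13 of the 1032 sites had their centre within 1 kb of an annotated transcription start, or 1.26% (exact 95% interval 0.672% to 2.14%), against 1.87% of the other sites and 1.84% of all 20768 autosomal sites on those chromosomes. The interval includes both values. Of the 13, 6 lay on PRDM9-independent peaks, as did 135 of the 369 other sites within 1 kb of a start. Among the 6 was the site in Meig1, a gene needed for sperm formation. It had the highest H3K4me3 signal of all centromere-proximal sites, 150, and a DMC1 signal of only 23.1. The site beside Cnksr3 was alike, with an H3K4me3 signal of 122 and a DMC1 signal of 25.7. The site beside Frmd4a, on no such peak, showed the other pattern, with a DMC1 signal of 379 at an H3K4me3 signal of 46.3. The median distance to a start was 35.0 kb for centromere-proximal sites and 29.5 kb for the other sites.

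Centromere-proximal hotspots carried less H3K4me3 than the other hotspots and about the same DMC1, and so more DMC1 per unit of H3K4me3. The median H3K4me3 signal was 9.14 (quartiles 4.62 and 18.03) at centromere-proximal sites and 12.1 (6.53 and 23.1) at the other sites, which is 1.32-fold lower, or -0.40 on the log2 scale. The median DMC1 signal was 67.9 (26.8 and 188) against 66.0 (28.3 and 175), a log2 difference of 0.04. The ratio of DMC1 to H3K4me3 had a median of 8.08 at centromere-proximal sites and 6.16 at the other sites. That difference was 0.39 on the log2 scale, a 1.31-fold higher ratio. The 2 sets overlap widely at every level, as the quartiles show. The ratio has no absolute meaning, because the scaling of neither signal is known, and it is compared only between sites of these libraries.

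**Figure D1:**
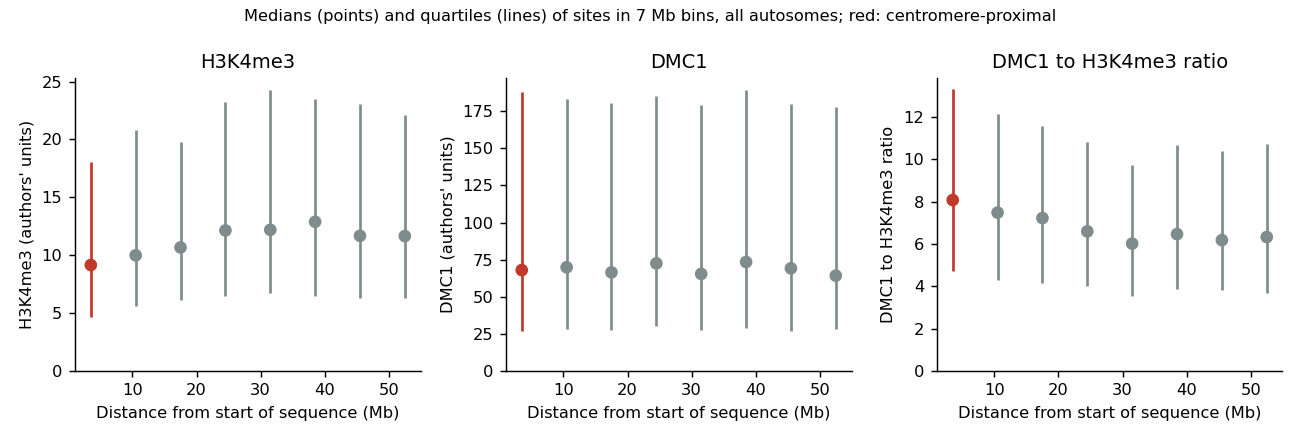
Median H3K4me3, DMC1 and ratio of the 2 (points, authors' units) with quartiles (lines) for CAST and HUM sites of all autosomes, in bins of 7 Mb from the first sequenced base; the centromere-proximal bin is red. H3K4me3 is lowest in the red bin at 9.14 and the ratio highest there at 8.08, while DMC1 stays between 64.2 and 73.4 in all bins.

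The change with distance from the centromere was gradual in 7 Mb bins but uneven in finer windows. The plot of 7 Mb bins along the chromosomes gave median H3K4me3 signals of 9.14, 9.98, 10.7, 12.1, 12.2 and 12.9 in the first 6 bins, counted from the centromere. The ratio in the same bins was 8.08, 7.49, 7.23, 6.60, 6.02 and 6.47. The bins from 45 to 52 and from 52 to 59 Mb had H3K4me3 signals of 11.7 and 11.6 and ratios of 6.18 and 6.33. In windows of 2 Mb the ratio was 8.43 from 8 to 10 Mb and 8.17 from 10 to 12 Mb. It was 7.78 from 12 to 14 Mb and 6.85 from 14 to 16 Mb. No step stood at 10 Mb: the sites from 10 to 20 Mb had a median ratio of 7.36 and an H3K4me3 signal of 10.1, both between the centromere-proximal values and those from 20 to 30 Mb, which were 6.70 and 11.6. Against these sites from 10 to 20 Mb alone, the centromere-proximal sites differed by 0.13 for the ratio and -0.15 for H3K4me3 on the log2 scale, less than against all other sites. Within the centromere-proximal region the first sequenced 1 Mb had the lowest ratio. Its 114 sites had a median ratio of 6.44, a DMC1 signal of 54.3 and an H3K4me3 signal of 9.08, whereas the ratio lay between 7.49 and 8.77 in each of the next 6 windows of 1 Mb. The opposite chromosome ends were nearer to the other sites: over the last 10 Mb the median ratio was 6.60, and the log2 difference of centromere-proximal minus distal sites was 0.29.

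Calls at a fold of 2 from the median of all autosomal CAST and HUM sites gave the same picture. A ratio over 2 times that median of 6.24 was found at 305 centromere-proximal sites, 28.0% (exact 95% interval 25.3% to 30.7%), against 17.0% of the other sites, with 17.5% over all 21653 autosomal sites. A ratio of under the median divided by 2 was found at 123 sites, 11.3%, against 19.2% of the other sites and 18.8% of all. For H3K4me3, 375 sites or 34.4% (31.6% to 37.3%) fell under the median of 11.9 divided by 2, against 21.6% of the other sites and 22.2% of all. At the upper end, 191 sites or 17.5% exceeded 2 times the H3K4me3 median, against 23.8% of the other sites and 23.5% of all. For DMC1 the shares were near the background in both directions. DMC1 exceeded 2 times its median of 66.1 at 359 sites, 32.9%, against 31.5% of the other sites and 31.6% of all. It was under that median divided by 2 at 351 sites, 32.2%, against 29.8% of the other sites and 29.9% of all. These intervals cover counting error only.

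The strongest sites by DMC1 and by the ratio held a larger share of centromere-proximal sites than all autosomal sites did, and the strongest by H3K4me3 did not. The 1090 sites made up 5.03% of the autosomal CAST and HUM sites and held 5.33% of their summed DMC1 and 4.23% of their summed H3K4me3. Among the 200 strongest sites by DMC1, 19 were centromere-proximal, or 9.50% (exact 95% interval 5.82% to 14.4%). Among the 200 highest ratios, 25 were, or 12.5% (8.26% to 17.9%). Among the 200 strongest by H3K4me3, 9 were, or 4.50% (2.08% to 8.37%). Over the 1000 strongest by DMC1 the share was 6.60% (5.14% to 8.32%), and over the 1000 highest ratios 10.9% (9.04% to 12.998%).

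The higher ratio was seen where the 2 sets of sites were compared at the same H3K4me3. In 10 bins holding equal numbers of autosomal sites, median DMC1 was higher at centromere-proximal sites in each bin, by 0.15, 0.19, 0.34, 0.59, 0.56, 0.60, 0.52, 0.51, 0.37 and 0.11 on the log2 scale from low to high H3K4me3. In the sixth bin, for example, 100 centromere-proximal sites had a median DMC1 signal of 122 and 2068 other sites one of 80.5. In the top bin the values were 329 and 304. Weighted over the bins by the number of centromere-proximal sites, the difference was 0.37. It was 0.38 for CAST and 0.34 for HUM sites. Taken on each autosome alone, the difference was positive on 14 of 19, from -0.44 on chromosome 14 to 1.05 on chromosome 2. By class it was positive on 16 autosomes for CAST and on 12 for HUM sites. At 552 of the 1090 sites the H3K4me3 value repeats that of an earlier site of the table. The matching count for the other sites is not given here, so this is not read as particular to the region. Without repeated values, the log2 differences were 0.39 for the ratio, -0.30 for H3K4me3 and 0.22 for DMC1. The DMC1 difference was thus larger than over all sites, but it was taken over stronger sites. Median log2 H3K4me3 of the sites left was 3.77 near the centromere and 4.07 elsewhere, against 3.19 and 3.60 over all sites.

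**Figure D2:**
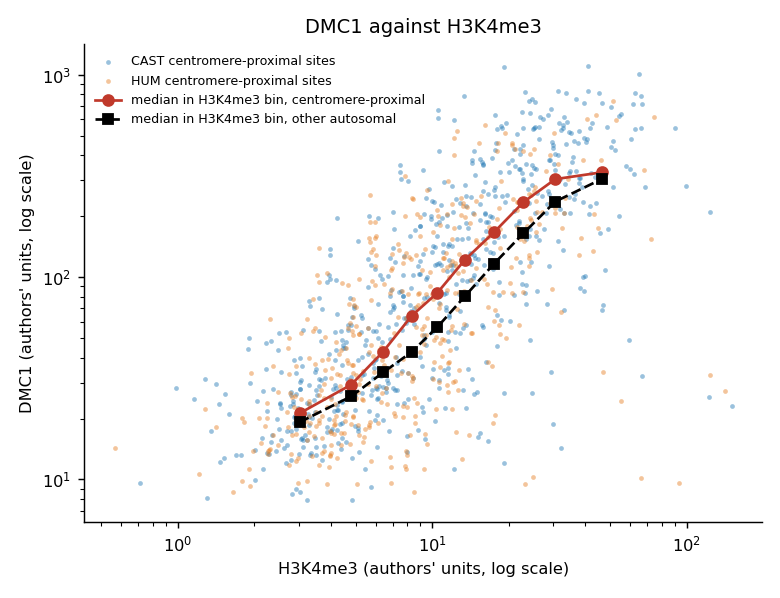
DMC1 against H3K4me3 signal (authors' units, both axes log) at the 1090 centromere-proximal sites, CAST in blue and HUM in orange, with median DMC1 in 10 bins of H3K4me3 for centromere-proximal sites (circles) and other autosomal sites (squares). The circles lie above the squares in every bin, most in the fourth to eighth bins and least in the top one.

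Both PRDM9 alleles showed the pattern against all other sites of their class. CAST sites had a median H3K4me3 signal of 10.5 near the centromere and 13.4 elsewhere, a DMC1 signal of 84.0 and 82.6, and a ratio of 8.68 and 6.82. HUM sites had an H3K4me3 signal of 7.93 near the centromere and 10.6 elsewhere, a DMC1 signal of 51.8 and 52.0, and a ratio of 6.98 and 5.34. The log2 ratio difference was 0.35 for CAST and 0.39 for HUM sites. In the neighbouring bin from 10 to 17 Mb, the median ratio was 8.71 for CAST and 6.14 for HUM sites. For CAST sites the ratio near the centromere was thus no higher than in that bin. DMC1 and H3K4me3 rank-correlated across the centromere-proximal sites with a Spearman rho of 0.73 (0.72 across the other sites), given as a description, since sites share both libraries. The CAST allele held 642 of the 1090 sites, 58.9% (exact 95% interval 55.9% to 61.8%), against 57.0% of the other sites and 57.1% of all. Against the sites from 10 to 20 Mb that order was turned, by -1.70 percentage points.

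The autosomes differed widely in how much of this they showed. The ratio was higher near the centromere on 16 of the 19 autosomes, with chromosomes 3, 17 and 19 the exceptions. Of the 16, chromosome 9 had nearly equal ratios, 5.52 and 5.49, and chromosomes 1 and 16 each had a log2 difference of only 0.09. H3K4me3 was lower near the centromere on 15 autosomes, with chromosomes 3, 7, 14 and 19 the exceptions, and DMC1 was higher on only 10. Chromosome 10 stood out with a median ratio of 13.9 over its 82 centromere-proximal sites and 6.43 over its other sites. Its H3K4me3 signal was 6.03 near the centromere and 11.6 elsewhere, with DMC1 at 74.5 and 66.3. Chromosome 6 was alike, with ratios of 12.5 and 6.25, as was chromosome 2 with 10.8 and 5.37. Chromosome 7 was unlike these: its 31 centromere-proximal sites had a DMC1 signal of 139 against 64.4 at its other sites, at an H3K4me3 signal of 13.8 against 13.1. Chromosome 1 had the lowest DMC1 signal near the centromere, 27.4 over 37 sites against 65.1 elsewhere. Chromosome 19 had the lowest ratio near the centromere, 4.69 against 6.15, and the most genes there, with 32 protein-coding genes per Mb.

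**Figure D3:**
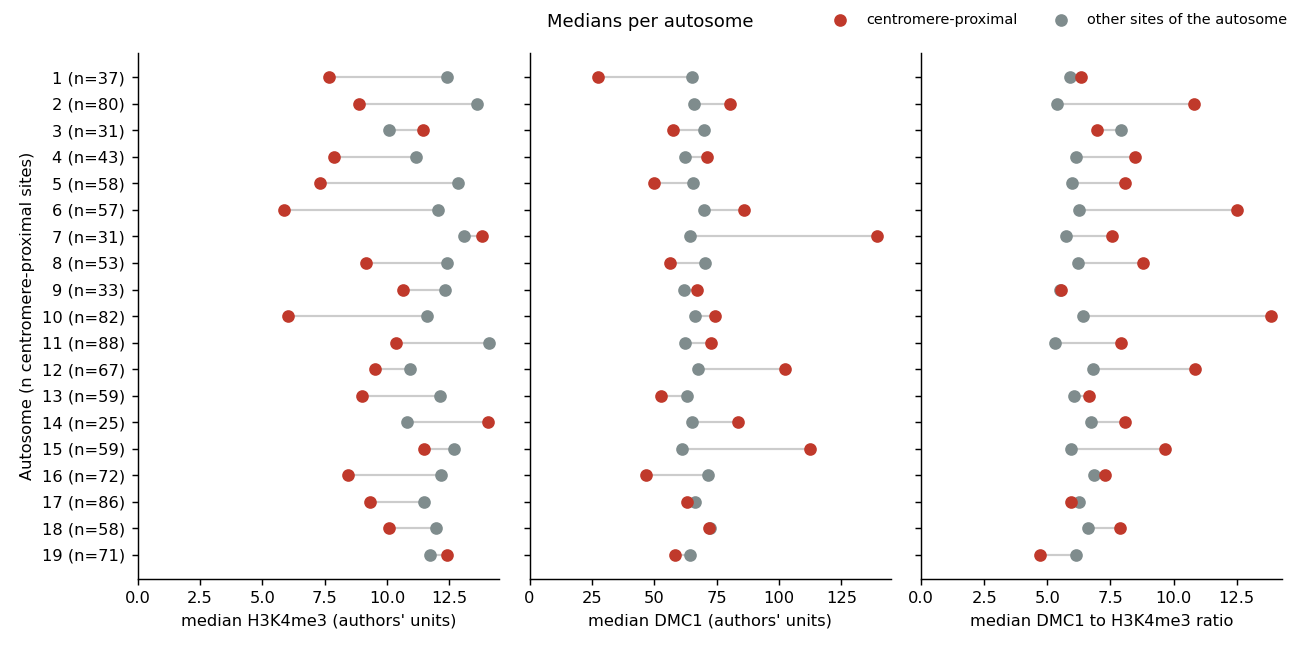
Medians of H3K4me3, DMC1 and their ratio (authors' units) on each autosome, for centromere-proximal sites (red) and the other sites of the same autosome (grey), with the number of centromere-proximal sites beside the chromosome. The red point lies right of the grey one for the ratio on 16 of 19 autosomes, farthest on chromosome 10, and left of it for H3K4me3 on 15.

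The density of hotspots near the centromere lay between those of other stretches. The region held 8.20 CAST and HUM sites per Mb over 133 Mb of sequence, against 9.09 per Mb over the other 2262 Mb, and the density was lower on 13 of 19 autosomes. It was higher than the 7 sites per Mb of the neighbouring stretch from 10 to 20 Mb, and the same to 2 digits as the 8.21 of the stretch from 40 to 50 Mb. Chromosome 11 held the most, 88 sites, and chromosome 14 the fewest, 25. The median distance to the next site was 65.8 kb against 61.7 kb. Of the 133 windows of 1 Mb, 6 held no site and the median window held 8. The empty windows were on chromosome 3 (4 to 5 and 6 to 7 Mb), chromosome 7 (8 to 9 and 9 to 10 Mb) and chromosome 14 (3 to 4 and 6 to 7 Mb). The fullest, at 4 to 5 Mb of chromosome 11, held 22 sites, some of them inside Hormad2, Nf2, Mtmr3 and 6 other genes. The site nearest to the start of the sequence lay at position 3116465 of chromosome 16, and the first site of chromosome 14 only at 4141253. The first sites ranged in DMC1 from 9.50 in Gm32966 on chromosome 14 to 325 in Cdk6, a cell-cycle kinase, on chromosome 5.

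Among stretches that begin below 10 Mb, the longest without a CAST or HUM site began at position 7106751 of chromosome 7 and ran for 3129 kb, past the 10 Mb border. The longest elsewhere on the autosomes was 4290 kb. The chromosome 7 stretch held 30 protein-coding genes, of which 24 were vomeronasal receptor (Vmn) genes, which detect pheromones, and 4 were zinc-finger (Zfp) genes. It also held 1 site each of the classes UNK and KO. Of 36 Vmn genes below 10 Mb 0 held a site, which allows a share of up to 8.33% (3 counts of the total), and of 10 olfactory receptor (Olfr) genes 0 did, which allows up to 30%. These genes are short in sum, 0.525 Mb for Vmn and 0.0208 Mb for Olfr, and 33 of the 36 Vmn genes lie on chromosome 7. All protein-coding genes below 10 Mb held 10.9 sites per Mb of gene. Beyond 10 Mb, 2.54% of 315 Vmn genes and 0.549% of 1093 Olfr genes held a site, and both shares lie under the limits that the counts of 0 allow. Vmn genes had a median length of 15.9 kb below 10 Mb and 0.948 kb beyond, so their shares compare genes of unlike length. Of 25 Zfp genes 3 held a site, or 12%, against 20.2% of 366 beyond 10 Mb: Zfp704 and Zfp804b with 3 sites each and Zfp438 with 1. Counts in such families are uncertain, since they hold near-identical copies and the treatment of reads shared between copies is unknown.

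Genes held 579 of the 1090 sites, 53.1% (exact 95% interval 50.1% to 56.1%), against 54.5% of the other sites and 54.4% of all. With the border at 5 Mb the order was turned, with 59.4% against 54.4%. They lay in 283 of 1068 protein-coding genes that start below 10 Mb, or 26.5%, against 29.0% of 19488 genes beyond. Gene length went with this: the longest 10% of genes, those of at least 114 kb, held a site in 94 of 107 cases and took 324 sites, 29.7% of all members. The same counts beyond 10 Mb were not made, so these are not read as particular to the region. The annotation used gives gene bounds without exons, so exon and intron could not be assigned. The ratio was higher near the centromere inside genes (8.10 against 6.32) and between genes (8.07 against 6.01). It was also higher where few genes lay within 500 kb (8.16 against 6.47) and where many did (7.60 against 5.83).

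The genes with the most centromere-proximal sites show how much neighbouring sites differ. Rbfox1 on chromosome 16, which encodes a neuronal splicing regulator and spans 1528 kb, held 12 sites with DMC1 signals between 20.4 and 689. Samd5 on chromosome 10 held 11 sites in 413 kb. The Samd5 site at 9666114, of class CAST, had a DMC1 signal of 780 at an H3K4me3 signal of only 13.3, a ratio of 58.7. Its B6 share was 0.978 for DMC1 and 0.910 for H3K4me3. The Samd5 site at 9390125, of class HUM, had a DMC1 signal of 316 and an H3K4me3 signal of 7.81, and was on the CAST homologue, with B6 shares of 0.0108 for DMC1 and 0.0395 for H3K4me3. The Samd5 site at 9400009, of class CAST, had the highest H3K4me3 of the gene, 23.4, with a DMC1 signal of 154. So in 1 gene, sites on opposite homologues and of both alleles lay within 413 kb, and the site with most H3K4me3 was not the one with most DMC1. Next came Adarb2, whose product resembles RNA-editing enzymes, and Arid1b, a subunit of the BAF chromatin remodeller, with 9 sites each. Camk1d and Cdk14, which encode protein kinases, held 8 each, as did Celf2, Frmd4a and Klhl29. In Arid1b the site at 5056059, of class CAST, had an H3K4me3 signal of 90.0 and a DMC1 signal of 543, and the other 8 sites had DMC1 signals between 14.1 and 250.

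Few genes of the chosen list of break formation, synapsis and repair factors lie in the region, about in the share of all genes. Of 49 meiotic genes on a list of break formation, synapsis and repair factors, Hormad2 and Gm960 lay below 10 Mb, or 4.08%, against 5.20% of all 20556 autosomal protein-coding genes. Hormad2, which encodes a protein of unsynapsed chromosome axes, held 3 CAST sites. Their DMC1 signals were 9.0, 543 and 832, at H3K4me3 signals of 2.91, 32.7 and 40.9. Gm960, also known as Top6bl, which encodes the partner of SPO11 in break formation, held 1 CAST site with a DMC1 signal of 199 at an H3K4me3 signal of 5.67 and a DMC1 B6 share of 0.985.

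The strongest centromere-proximal sites were of class CAST, and the top 6 are given for each class separately. All 6 CAST sites had more DMC1 than the strongest HUM site. The top 6 CAST sites were in Usp6nl (1106), in Gdf6 (1093), beside Tpd52 (1002), in Rgs17 (833), in Hormad2 (832) and in Rps6ka2 (820), with the DMC1 signal in parentheses. Usp6nl encodes an activator of Rab GTP hydrolysis, Gdf6 a growth factor of the BMP family, Rgs17 a regulator of G protein signalling and Rps6ka2 a ribosomal S6 kinase. Of these, the Gdf6 site on chromosome 4 reached its signal with the least H3K4me3, 19.2. The top 6 HUM sites were in Cfap20dc (739), beside Egflam (630), beside Sdcbp (619), beside Adcy9 (604), in a stretch shared by Skp2 and Lmbrd2 (598) and in Egflam (566). Sdcbp encodes the adaptor syntenin, Adcy9 an adenylyl cyclase and Skp2 a subunit of a cell-cycle ubiquitin ligase. Egflam, the gene for a retinal matrix protein, thus had 2 of the 6. Its intragenic site, at 7225703 of chromosome 15, was on the CAST homologue, with a DMC1 B6 share of 0.0318 at an H3K4me3 signal of 16.2. The site 42.1 kb beside the gene, at 7440863, used both homologues, with a share of 0.443 at an H3K4me3 signal of 44.3.

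Among the upper 50% of members by DMC1, the extremes of the ratio differed in homologue use. The highest ratios were 63.6 beside Ucma and 57.7 in Proser2 on chromosome 2, with 58.7 in Samd5 between them. These 3 CAST sites all had DMC1 B6 shares over 0.9, namely 0.985 at Ucma, 0.993 at Proser2 and the 0.978 given for Samd5. The lowest were 1.48 beside Slc22a28, 1.54 in Zmiz2 and 1.69 in Cpt1a, the gene for the liver enzyme that brings fatty acids into mitochondria. Those 3 had DMC1 on both homologues, with B6 shares of 0.529 at Slc22a28, 0.60 at Zmiz2 and 0.541 at Cpt1a. The Zmiz2 and Cpt1a sites lay on PRDM9-independent peaks. These sites were picked by the ratio, so the values are a description.

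The median homologue share near the centromere was close to that of the other sites. A DMC1 B6 share was given at 1005 of the 1090 sites, and its median was 0.474 against 0.472. Shares over 0.9, here called B6-only, were found at 213 sites, 21.2% (exact 95% interval 18.7% to 23.9%), against 19.5% of the other sites and 19.5% of all. Shares under 0.1, here called CAST-only, were found at 125 sites, 12.4% (10.5% to 14.6%), against 13.9% of the other sites and 13.8% of all. Both intervals include the value of the other sites, and against the last 10 Mb of the autosomes the order for B6-only sites was turned, with 21.2% near the centromere and 22.4% at the distal ends. With the border at 5 Mb the gaps were wider, 23.8% against 19.5% for B6-only and 10.4% against 13.9% for CAST-only sites. By class, the CAST sites were 22.6% B6-only and 7.86% CAST-only, against 21.2% and 10.3% at the other CAST sites. The HUM sites had 78 of each kind among 407, or 19.2%, against 17.1% B6-only and 18.8% CAST-only at the other HUM sites. For H3K4me3, 96 of 1006 sites were B6-only, 9.54% against 9.31% of the other sites and 9.32% of all. Another 36 were CAST-only, 3.58% (2.52% to 4.92%) against 4.95% of the other sites and 4.88% of all.

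**Figure D4:**
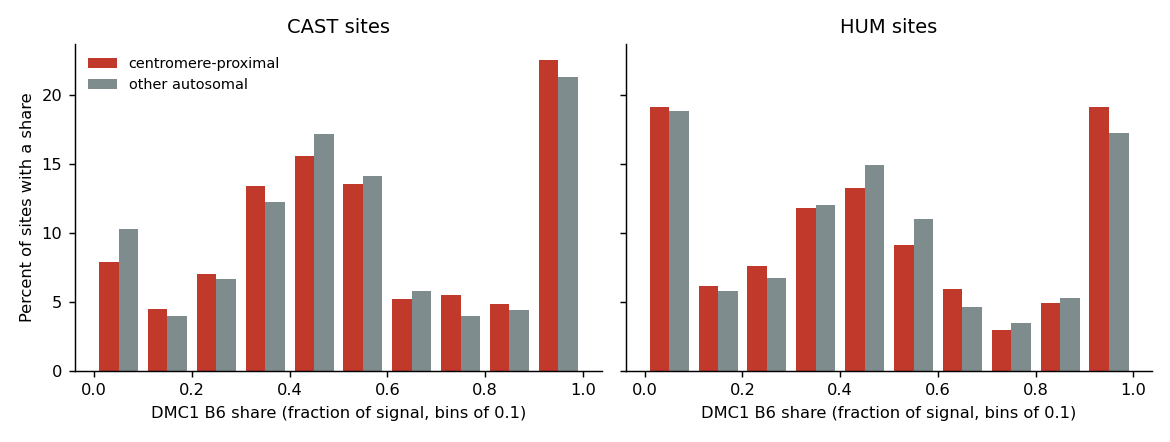
Share of sites (percent of those with a value) by DMC1 B6 share in bins of 0.1, for CAST sites (left) and HUM sites (right), centromere-proximal in red and other autosomal in grey. In both sets CAST sites pile up over 0.9, with 22.6% of the centromere-proximal ones, while HUM sites pile up at both ends with 19.2% at each end near the centromere.

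Sites whose H3K4me3 was on 1 homologue had more DMC1 per H3K4me3 than sites marked on both (H3K4me3 share of 0.3 to 0.7), near the centromere as elsewhere. The log2 ratio difference, one-homologue minus both, was 1.03 at centromere-proximal sites and 1.14 at the other sites. In the CAST class it was 0.93 over 80 one-homologue sites near the centromere and 1.23 elsewhere. In the HUM class it was 1.24 over 52 such sites near the centromere and 0.95 elsewhere. The 20 HUM sites marked only on the CAST homologue had the highest median ratio of the 4 groups of one-homologue sites near the centromere, 18.1, against 10.6 at such sites elsewhere. At sites marked on both homologues, the median ratio was 7.12 near the centromere and 5.33 elsewhere, so that the log2 difference of 0.42 was as large as over all sites. The 84 sites with no H3K4me3 share behaved otherwise for the ratio, with 5.17 and 5.10 and a log2 difference of 0.02. Both signals were lower at these sites than at such sites elsewhere. H3K4me3 was 4.30 against 7.82, and DMC1 was 25.9 against 32.9.

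The most one-sided strong sites, among the upper 25% by DMC1, were found for both alleles. The DMC1 signal came from B6 alone in Ica1 (share 1, DMC1 296) and 190 kb from Arid1b (share 1, DMC1 219). In Elapor2 it did nearly so (share 0.999, DMC1 645). It came from CAST in Tmem150b (share 0, DMC1 515), in Ust (share 0.00302, DMC1 253) and beside Dip2c (share 0.00371, DMC1 420). The Ust site, of class HUM, had an H3K4me3 signal of 5.69 and a ratio of 44.5. Ust encodes a sulfotransferase of matrix polysaccharides.

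Peaks of H3K4me3 that do not depend on PRDM9 overlapped 71 centromere-proximal sites, 6.51% (exact 95% interval 5.12% to 8.15%), against 7.63% of the other sites and 7.57% of all. With the border at 5 Mb the order was turned, with 9.03% against 7.55%. In the HUM class the share was 5.13% (3.28% to 7.60%) against 7.39%, and in the CAST class 7.48% against 7.81%. The HUM interval includes the value of the other HUM sites. On such peaks the median H3K4me3 signal was 22.2 near the centromere and 25.3 elsewhere, and the ratio 4.46 and 2.94. Off them, at 1019 centromere-proximal and 18994 other sites, the ratio was 8.25 and 6.39.

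The border itself fell between ordinary sites. The last site inside was a CAST site at 9997209 of chromosome 16, beside Grin2a, with a DMC1 signal of 11.3 and an H3K4me3 signal of 5.46. The first outside was a CAST site at 10002721 of chromosome 14, in Fhit, with a DMC1 signal of 138 and an H3K4me3 signal of 25.3.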

How the data were processed

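The deposited table lists 1 line per DMC1 hotspot. Per the file headers, the DMC1 signal (the authors' heat) and the H3K4me3 signal are intensities from their peak callers, and the B6 share is the fraction of a signal on the B6 homologue. Raw H3K4me3 data are credited there to Li et al; it is not known if they are the H3K4me3 library of the series. The submitters' processing notes name BWA and mm10 for all libraries, with version 0.7.15 for H3K4me3 and MNase, and for DMC1 the BWA version was not given in the sources used here. Scaling, depth and the reads behind each share are unknown.

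Differences are between medians of log2 values, without a pseudocount, computed with Python 3.11.15, pandas 2.3.3, NumPy 2.4.6, SciPy 1.17.1 and Matplotlib 3.10.9, after the code was tested on simulated data. Matching used 10 equal bins of H3K4me3. Shares have exact Clopper-Pearson 95% intervals, which cover counting error only. No p-value was computed, because each assay has 1 library. Density counted sequence from 3 Mb, the end of the placeholder in mm10, known from general knowledge, to 10 Mb or the last site. Genes were 20556 autosomal protein-coding genes of RefSeq GRCm38.p6, without 105 whose coordinates lie under 3 Mb; where several hold a site, the shortest is named. Starts and promoters came from a RefSeq table for 18 autosomes.

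Sites named are the 6 strongest per class, the first of each autosome, the 3 highest and 3 lowest ratios among the upper 50% by DMC1, the 3 highest and 3 lowest B6 shares among the upper 25%, and the nearest to the border; genes named hold the most sites or belong to the receptor, Zfp or meiotic lists. Sites near transcription starts, other sites of those genes and single windows were named after their values were seen. The members and lists were chosen with earlier results of these data known.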

Additional observations from a re-analysis of the deposited data

Results flagged for a closer look

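The table holds 2 further classes of autosomal sites that none of the comparisons above uses, and a larger share of each lay near the centromere than of CAST or HUM sites. Of 62 autosomal KO sites, 10 lay below 10 Mb, or 16.1% (exact 95% interval 8.02% to 27.7%). Of 1916 autosomal UNK sites, 126 did, or 6.58% (5.51% to 7.78%). The same share was 5.19% of CAST sites (4.80% to 5.59%) and 4.83% of HUM sites (4.40% to 5.28%), so that the UNK interval overlaps that of CAST sites. The file headers do not define KO or UNK, and no meaning was assumed for either.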

How the results depend on the processing

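With the border at 5 Mb, the difference of centromere-proximal minus other sites became -1.48 sites per Mb for density, 4.36 percentage points for B6-only DMC1 (1.74 with the border at 10 Mb), -3.49 for CAST-only DMC1, 1.47 for PRDM9-independent overlap and 5.0 for sites inside genes; with the border at 10 Mb the last pair were -1.12 and -1.39, so both changed sign. Against sites from 10 to 20 Mb only, log2 differences were -0.15 for H3K4me3, 0.13 for the ratio and 0.16 for DMC1 at matched H3K4me3. These kept the sign that they had against all other sites. The points were 0.80 for independent overlap, 3.5 for sites inside genes and -1.70 for class CAST, and these changed sign. Against the last 10 Mb the differences were 0.29 for the ratio and -1.24 points for B6-only DMC1, the last of the other sign. Over all alternatives other than leaving out an autosome, the ratio difference stayed positive (0.13 to 0.43), as did DMC1 at matched H3K4me3 (0.16 to 0.39), and the H3K4me3 difference stayed negative (-0.46 to -0.15), whereas the DMC1 difference took both signs (-0.08 to 0.22).

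None of the ratio, matched or H3K4me3 differences changed sign when 1 autosome was left out. Leaving out 1 autosome at a time gave 0.31 (without chromosome 10) to 0.42 for the ratio, 0.33 to 0.42 at matched H3K4me3, -0.45 to -0.37 for H3K4me3 and -0.05 (without chromosome 12) to 0.09 for DMC1. Density ranged from -1.11 to -0.65, class CAST from 1.34 to 2.74, B6-only from 1.34 to 2.28, CAST-only from -2.20 to -1.14, independent overlap from -1.67 to -0.74 and sites inside genes from -3.17 without chromosome 10 to -0.01 without chromosome 18. The limits to sites inside genes, between genes or with few genes within 500 kb, and the comparison with the last 10 Mb, were chosen after seeing the data. No paired analysis was possible because each assay has 1 library. Unknown depth sets how low a signal could be called, and neither animals nor libraries were replicated.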

Other observations

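The KO sites near the centromere were weak. Their median DMC1 signal was 12.9 below 10 Mb and 12.1 beyond, with median H3K4me3 signals of 2.38 and 1.32. The strongest was the first of chromosome 9, at 3019120, with a DMC1 signal of 62.4 and an H3K4me3 signal of 14.1. Chromosome 9 held 2 more of the 10 KO sites, whose nearest protein-coding genes were Casp1 and Dync2h1. One KO site, at 9194905 of chromosome 7, lay 10.6 kb from Vmn2r37, inside the long stretch without CAST or HUM sites. UNK sites had a median DMC1 signal of 21.2 below 10 Mb and 21.4 beyond, and H3K4me3 signals of 6.26 and 8.01.

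The 1 Mb window with the highest summed DMC1 was at 4 to 5 Mb of chromosome 12, with 18 CAST and HUM sites and a sum of 4144. It holds Ncoa1, a nuclear receptor coactivator, Itsn2 and Cenpo, which encodes a protein of the centromere itself. The Cenpo site, of class CAST, had a DMC1 signal of 651, an H3K4me3 signal of 22.6 and a DMC1 B6 share of 0.973.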
